A study of Homo sapiens with 9 samples.

Results

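The nuclear-encoded subunits of the respiratory chain were taken as the rows of the gene table whose symbol begins as the standard names of these subunits do (NDUFA, NDUFB, NDUFC, NDUFS and NDUFV for complex I, SDHA to SDHD for complex II, UQCR and CYC1 for complex III, COX4 to COX8 for complex IV, and ATP5F, ATP5M and ATP5P for complex V). Of 192 symbols that matched, 104 pseudogene symbols and 1 divergent transcript (UQCRFS1-DT) were left out, which gave 87 of the 60605 rows. Complex I held 36 of these genes, complex II 4, complex III 10, complex IV 18 and complex V 19. NDUFA4 was placed with complex IV, where its protein is found. All 87 are protein-coding in GENCODE release 44, and they lie on 22 chromosomes.

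Complexes I to IV pass electrons from NADH and succinate to oxygen in the inner mitochondrial membrane, and complexes I, III and IV pump protons while they do so. Complex V, the ATP synthase, lets the protons flow back and makes ATP. Complex II is made by nuclear genes alone, whereas the other complexes are built from nuclear-encoded subunits together with subunits that mitochondrial DNA encodes, so that products of both genomes have to meet in each of them.

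RNA was measured in TE13 cells, an established line of human esophageal squamous cell carcinoma (ESCC), after transfection with control siRNA, with PARylator siRNA.1 or with PARylator siRNA.2. PARylator is the lncRNA LINC00885, and both siRNAs target it. Each condition had 3 libraries, all made from poly(A)+ RNA of this 1 cell line, and the question was which transcripts change upon PARylator knockdown. The labels call the libraries biological replicates without naming separate cultures, so p-values measure the spread between these libraries, which may be technical.

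With control siRNA, LINC00885 was counted 6, 7 and 12 times, with siRNA.1 it was counted 4, 5 and 2 times, and with siRNA.2 it was counted 2, 0 and 4 times, so every knockdown library held fewer counts of it than every control library, at counts too low for a precise fold. Library totals lay between 15337917 and 17899074 counts on genes with control siRNA and between 15374616 and 17762752 with siRNA.1. They lay between 19213164 and 22559998 with siRNA.2, so every siRNA.2 library was deeper than every other library. All 8 epithelial markers looked at were present. Their summed level was between 939 and 960 FPKM in the control libraries, between 736 and 767 FPKM with siRNA.1 and between 733 and 748 FPKM with siRNA.2. The sum hides opposite moves. KRT5, KRT17, TP63, CDH1 and SFN were lower in every knockdown library than in every control library, KRT6A and EPCAM were higher, and KRT14 overlapped. The 6 leukocyte markers summed to between 0.26 and 0.61 FPKM in the control libraries, between 3.01 and 3.58 FPKM with siRNA.1 and between 3.24 and 3.97 FPKM with siRNA.2. LYZ was the highest of them in each knockdown library, at between 2.61 and 3.32 FPKM, and MS4A1 was at 0 in every library. The 5 fibroblast markers summed to between 2.22 and 2.41 FPKM, between 1.46 and 1.62 FPKM and between 1.44 and 1.68 FPKM in the same order. These marker levels moved with the conditions, and their part in the results was not tested. In such bulk samples, less RNA per cell and fewer cells that carry it cannot be told apart.

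Most subunits were abundant. FPKM, the deposited level, scales the count by the exonic length of the gene and by the total of the library, which brings genes of unequal length to 1 scale. The exonic length behind it appears to span all annotated exons of a gene and runs from 421 to 19359 bases among the tested members, so the FPKM of a gene with long annotated exons can understate its transcripts. NDUFB9 (16591 bases) and NDUFS5 (548 bases), for example, had similar counts in control libraries, 2735 and 2495 on average, but 10.1 and 280.2 FPKM. The 81 members that averaged 0.1 FPKM or more were tested, and their median level in control siRNA libraries was 27.5 FPKM. The highest FPKM values in control siRNA libraries were those of ATP5F1B, the catalytic beta subunit of the ATP synthase (348 FPKM ± 10.6 SD, n = 3), NDUFS5, a small accessory subunit of complex I (280.2 ± 12.9), and COX8A, a small membrane subunit of cytochrome c oxidase (199 ± 8.79). The median level in control libraries was lowest for complex I, at 11.7 FPKM, and highest for complex IV, at 51.2 FPKM, with complexes II, III and V at 32.7, 33.1 and 35.5 FPKM. Within complex I the levels ran from 1.36 FPKM (NDUFA7) to 280.2 FPKM, a range that also holds the differences in annotated length. Over the 79 tested members that averaged 1 FPKM or more, the median coefficient of variation between libraries of a condition was 4.74%, 4.79% and 4.03% with control siRNA, siRNA.1 and siRNA.2, against 6.26%, 6.30% and 5.53% over all genes at that level.

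**Figure D1:**
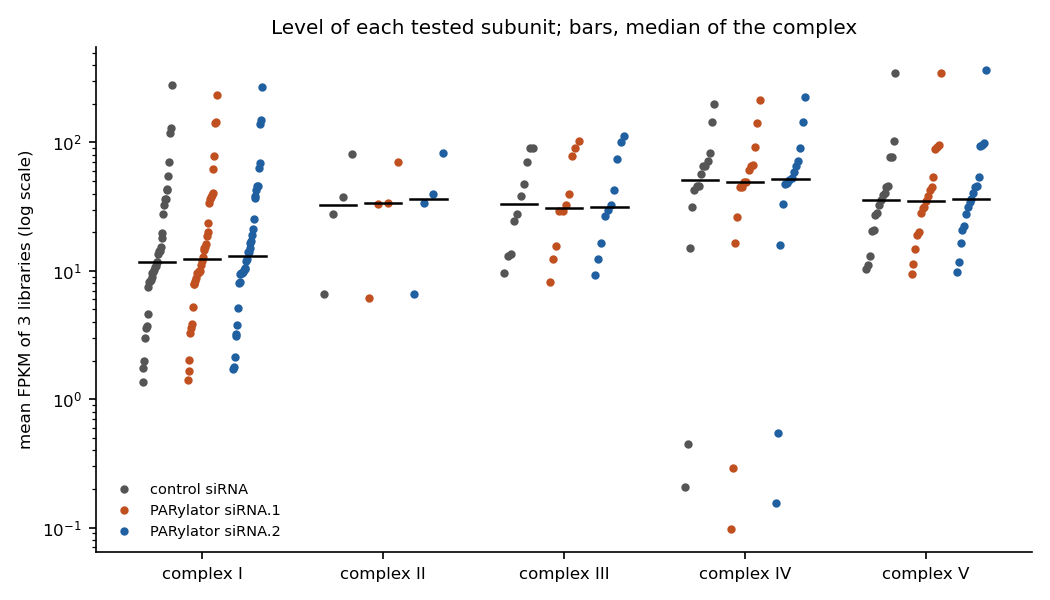
Mean FPKM of each of the 81 tested subunits (points, log scale, mean of 3 libraries) by complex and condition, with the median of each complex as a black bar. Complex I has the lowest median (11.7 FPKM with control siRNA) and complex IV the highest (51.2 FPKM), with its 2 low isoforms COX6B2 and COX7A1 far below. The spread within a complex also holds differences in annotated exonic length.

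The 6 members that were not tested were COX4I2, COX6A2, COX7B2 and ATP5MGL, COX8C, and ATP5MF-PTCD1. The first 4 of these had no count in any library, and COX8C had 2 counts in 1 library and none in the others. ATP5MF-PTCD1, a readthrough transcript that shares 87.9% of its exonic bases with its neighbors, had between 1 and 9 counts. COX4I2, COX6A2, COX7B2 and COX8C are isoforms known from lung, heart and muscle, or testis, and their ubiquitous counterparts were present, among them COX4I1 at between 43.8 and 47.1 FPKM and COX6A1 at between 140.3 and 147.5 FPKM in control libraries. COX7A1, the muscle isoform of subunit 7A, had 0, 3 and 3 counts with control siRNA, 3, 0 and 0 with siRNA.1 and 11, 6 and 2 with siRNA.2. These groups overlap. The members that were tested include COX7A1, so its passing rests on few counts.

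With siRNA.1, 12 of the 81 tested members were higher than with control siRNA and 18 were lower (edgeR's quasi-likelihood test, adjusted p under 0.05 over all 21397 genes tested). That is 14.8% higher and 22.2% lower, where 15.0% of all genes tested were called higher and 15.2% lower. With siRNA.2, 25 members were higher and 9 were lower, that is 30.9% and 11.1%, against 15.8% and 15.1% of all genes. Abundant genes are called more often, and among all genes that averaged 1 FPKM or more the shares were 22.1% higher and 22.8% lower with siRNA.1, and 23.4% higher and 22.5% lower with siRNA.2. Among the 79 members at that level they were 15.2% and 22.8%, and 31.6% and 10.1%. Members called lower with siRNA.1 thus stood at the share of other abundant genes, and with siRNA.2 the calls leaned to the higher side. Without the first control library, 16 members were higher with siRNA.2 in place of 25, with 9 lower. When each library was left out in turn, 9 of the 12 higher and 12 of the 18 lower calls with siRNA.1 held every time, and so did 11 of the 25 higher and 4 of the 9 lower calls with siRNA.2. With limma on log2(FPKM + 0.1), the split with siRNA.1 was 13 higher and 12 lower.

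The changes were small. The median absolute log2 fold change of the members was 0.14 for siRNA.1 and 0.13 for siRNA.2, where it was 0.30 and 0.31 over all genes tested and 0.21 and 0.21 over all genes that averaged 1 FPKM or more. Tested against a minimum fold of 1.2, 0 members passed with siRNA.1 in edgeR (1 higher and 2 lower at an unadjusted p under 0.05), where 5.88% of all genes were called higher and 5.30% lower. With siRNA.2, NDUFB10 passed as higher (adjusted p = 0.0122) and COX6B2 as lower (adjusted p = 0.0174), against 6.03% and 5.90% of all genes. Both comparisons share the 3 control libraries.

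**Figure D2:**
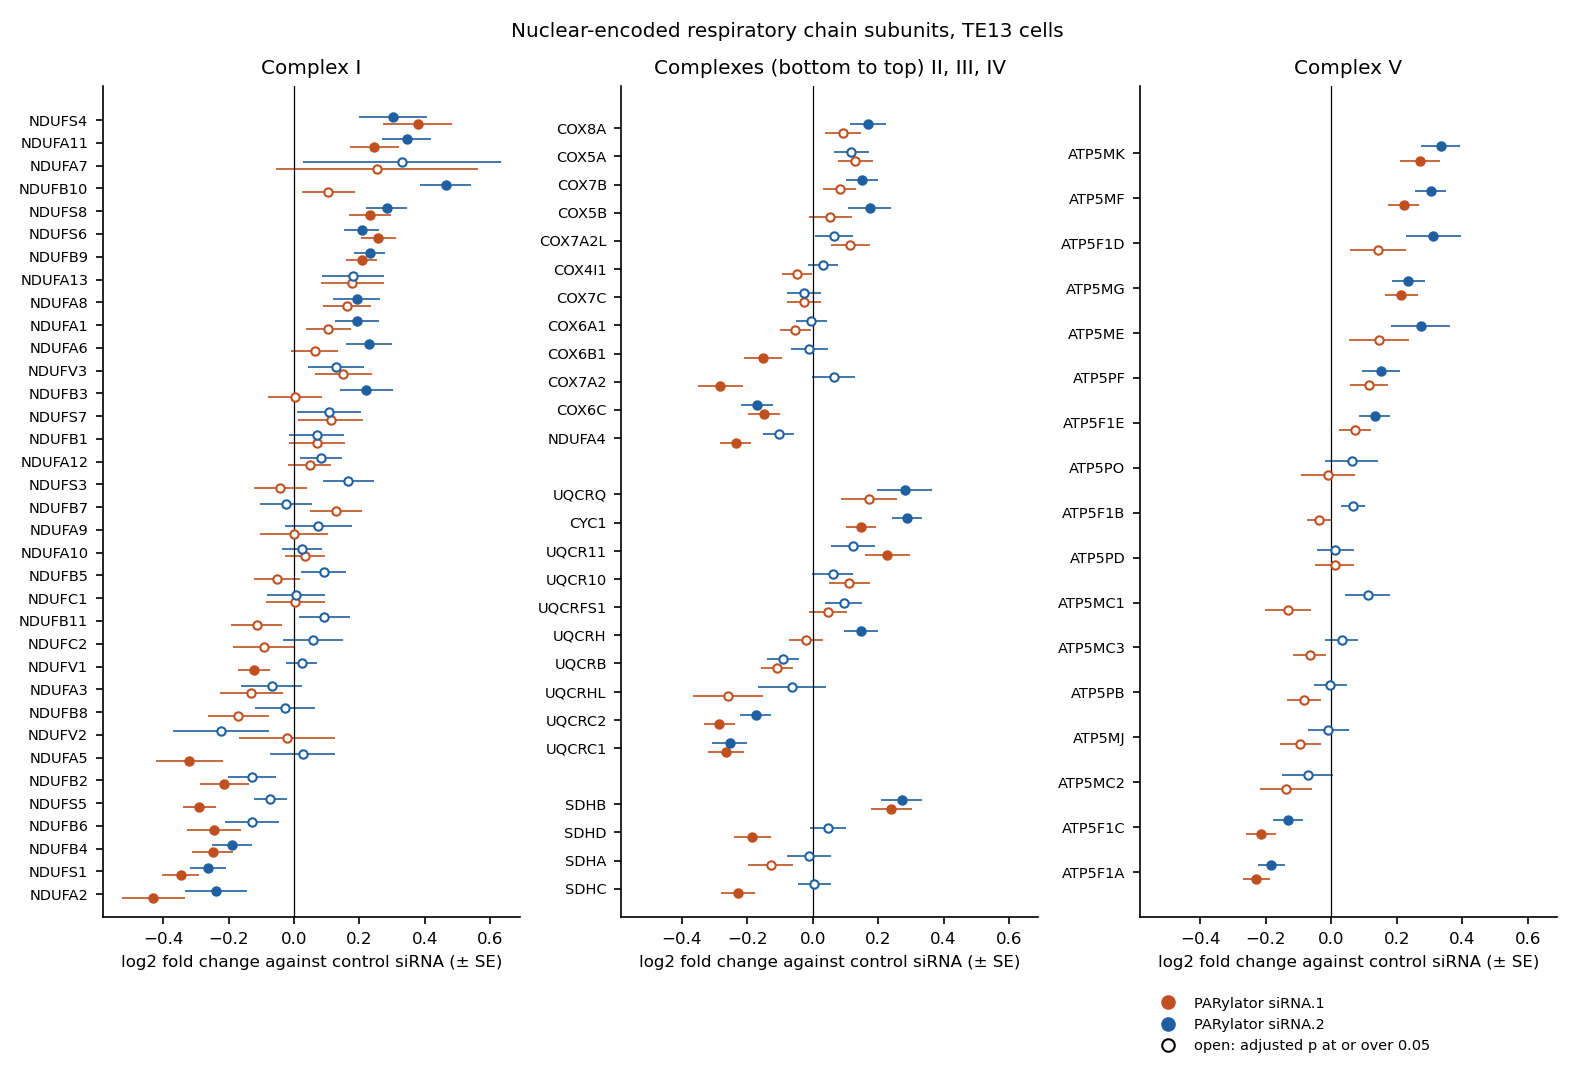
Log2 fold change against control siRNA (± SE) of tested subunits with siRNA.1 (orange) and siRNA.2 (blue), by complex and sorted by the sum of both values, with filled points for an adjusted p under 0.05; COX6B2 and COX7A1, at low counts, are not drawn. Each complex holds subunits on both sides of 0, and most points lie within 0.4 of it.

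Read by complex, higher and lower subunits stood side by side. With siRNA.1, complex I had 6 higher and 8 lower of 36 tested, complex II 1 and 2 of 4, complex III 2 and 2 of 10, complex IV 0 and 4 of 14, and complex V 3 and 2 of 17. With siRNA.2 the counts were 11 and 3 in complex I, 1 and 0 in complex II, 3 and 2 in complex III, 3 and 2 in complex IV, and 7 and 2 in complex V. For complexes I to V, siRNA.1 gave shares of 16.7%, 25%, 20%, 0% and 17.6% higher, and 22.2%, 50%, 20%, 28.6% and 11.8% lower. With siRNA.2 they were 30.6%, 25%, 30%, 21.4% and 41.2% higher, and 8.33%, 0%, 20%, 14.3% and 11.8% lower. Among all genes averaging 1 FPKM or more, 22.1% were higher and 22.8% lower with siRNA.1, and 23.4% and 22.5% with siRNA.2. The median log2 fold change with siRNA.1 was 0.02 for complex I, -0.16 for complex II, 0.01 for complex III, -0.05 for complex IV and -0.01 for complex V, and with siRNA.2 it was 0.09, 0.03, 0.08, 0.05 and 0.07, where the median of all genes tested was 0.00 in each. In single libraries the median of complex I lay between -0.05 and 0.04 relative to the control mean with control siRNA. It lay between -0.02 and 0.04 with siRNA.1 and between 0.05 and 0.09 with siRNA.2. The siRNA.2 libraries thus stood above the control libraries for complex I, by a narrow margin for the first of them (0.048 against 0.038). For complex II the siRNA.1 libraries, between -0.20 and -0.06, stood below the control libraries, between -0.05 and 0.02, by a narrow margin for the first of them. The medians of complexes III, IV and V overlapped between control siRNA and each PARylator siRNA. Subunits of 1 complex are not replicates, and no test between complexes was made.

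The members together took between 0.738% and 0.774% of all counts in the control libraries, between 0.737% and 0.786% with siRNA.1 and between 0.779% and 0.806% with siRNA.2. The siRNA.2 libraries lay above all control libraries, and the siRNA.1 libraries overlapped them. Mitochondrial genes took between 7.46% and 7.66%, between 4.99% and 5.06% and between 5.54% and 5.56% of the counts in the same order. Of the counts outside the mitochondrial genes, the members took between 0.799% and 0.836% with control siRNA, between 0.775% and 0.827% with siRNA.1 and between 0.825% and 0.854% with siRNA.2, and on this base the siRNA.2 libraries overlapped the control libraries too. The 13 subunits that mitochondrial DNA encodes were called lower in 13 of 13 cases with siRNA.1 and in 13 of 13 with siRNA.2 (edgeR), with a median log2 fold change of -0.64 with siRNA.1 and -0.46 with siRNA.2.

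**Figure D3:**
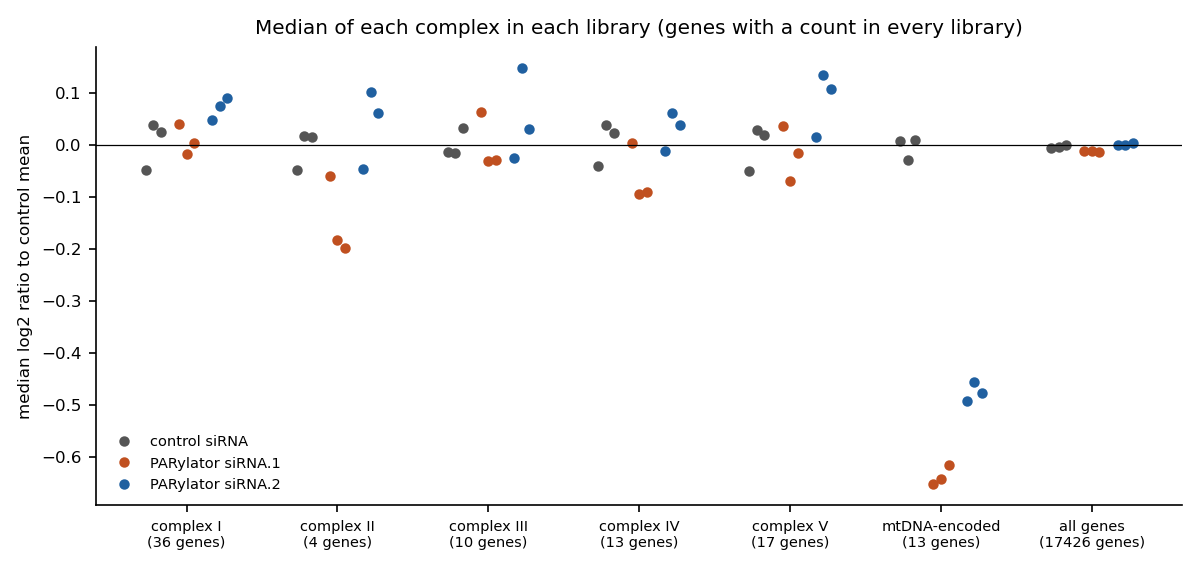
Median log2 ratio to the control mean over the subunits of each complex in each library (TMM-scaled counts, genes with a count in every library), beside the subunits encoded by mitochondrial DNA and all genes tested. The nuclear-encoded complexes lie between -0.20 and 0.15 in every library, and the mitochondrially encoded subunits lie between -0.65 and -0.46 in the 6 knockdown libraries.

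In complex I, the 7 nuclear-encoded core subunits form the part that takes electrons from NADH and holds the flavin and the iron-sulfur clusters. The accessory subunits surround and stabilize the core. These nuclear-encoded core subunits went both ways. NDUFS1 (chr2:206114817-206159509, minus strand, GRCh38), the large core subunit of the NADH-oxidizing arm, was at 9.98, 9.88 and 9.60 FPKM with control siRNA, 7.90, 8.25 and 7.46 with siRNA.1, and 7.93, 8.83 and 7.96 with siRNA.2. Every knockdown library lay below every control library. The log2 fold change was -0.35 (SE 0.06, edgeR adjusted p = 5.9e-09) with siRNA.1 and -0.26 (SE 0.05, adjusted p = 1.18e-05) with siRNA.2. NDUFV1, which binds NADH and the flavin, changed by -0.12 with siRNA.1 (adjusted p = 0.0376) and by 0.02 with siRNA.2 (adjusted p = 0.775), and the siRNA.1 call was lost under 9 of 19 alternatives, among them leaving out the second or the third library of either group. NDUFS8, which lines the path of electrons to ubiquinone, was higher with each siRNA, by 0.23 and 0.28 on the log2 scale, and its siRNA.1 call was lost without the first siRNA.1 library or the first control library.

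Among the 29 accessory subunits, 4 were higher and 6 lower with siRNA.1, and 9 were higher and 2 lower with siRNA.2. These are shares of 13.8% and 20.7%, and of 31% and 6.9%. Of all genes that averaged 1 FPKM or more, 22.1% were higher and 22.8% lower with siRNA.1, and 23.4% and 22.5% with siRNA.2. NDUFA2 (chr5:140638740-140647771, minus strand), a small subunit with a thioredoxin fold, was at 19.8, 21.3 and 18.4 FPKM with control siRNA, 15.7, 13.6 and 15.6 with siRNA.1, and 17.4, 17.9 and 15.6 with siRNA.2. The knockdown libraries all lay below the control libraries, closely so with siRNA.2. The change was -0.43 (SE 0.10, adjusted p = 5.65e-05) with siRNA.1 and -0.24 (SE 0.09, adjusted p = 0.0364) with siRNA.2, and the siRNA.2 call was lost under 8 of 19 alternatives, among them leaving out the first or the third siRNA.2 library or the first or the second control library. NDUFS4 (chr5:53560633-53683338, plus strand), which is needed for a stable NADH-oxidizing arm, moved the other way. It was at 14.4, 14.4 and 16.8 FPKM with control siRNA, 21.0, 19.5 and 19.95 with siRNA.1, and 18.1, 16.9 and 21.5 with siRNA.2. The siRNA.1 libraries stood clear of the control libraries, whereas the lowest siRNA.2 library lay just above the highest control library. The change was 0.38 (SE 0.10, adjusted p = 0.0017) and 0.30 (SE 0.10, adjusted p = 0.0145), and the siRNA.2 call was lost without the third siRNA.2 library or without the first or the second control library (adjusted p up to 0.276).

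NDUFB10 (chr16:1959538-1961975, plus strand), an accessory subunit of the membrane arm, had the largest rise of the complex with siRNA.2. It was at 31.2, 33.7 and 33.6 FPKM with control siRNA, 38.7, 35.2 and 34.0 with siRNA.1, and 41.4, 43.6 and 51.6 with siRNA.2. All siRNA.2 libraries lay above the other 6 libraries, the third siRNA.2 library was the highest, and the siRNA.1 libraries lay slightly above the control libraries in FPKM. The change was 0.46 (SE 0.08, adjusted p = 3.51e-08) with siRNA.2 and 0.10 (SE 0.08, adjusted p = 0.366) with siRNA.1. NDUFS5, the subunit of complex I with the highest FPKM, was at 274.7, 294.9 and 270.9 FPKM with control siRNA, 236.1, 236.4 and 228.3 with siRNA.1, and 270.2, 270.5 and 264.7 with siRNA.2. Only the siRNA.1 libraries stood clearly apart, with a change of -0.29 (SE 0.05, adjusted p = 1.8e-07) against -0.07 (SE 0.05, adjusted p = 0.307) with siRNA.2. NDUFA5, which was at between 1.69 and 1.81 FPKM in control libraries, changed by -0.32 (adjusted p = 0.00766) with siRNA.1 and by 0.03 (adjusted p = 0.895) with siRNA.2. NDUFS6, NDUFA11 and NDUFB9 were higher with each siRNA, and NDUFB4 was lower with each, by 0.19 to 0.34 in absolute log2 fold change. Of these, the siRNA.1 call of NDUFA11 was lost without the first library of either group and the siRNA.2 call of NDUFB4 without the first siRNA.2 library or the second control library.

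In complex II, SDHA holds the flavin that oxidizes succinate, SDHB holds the iron-sulfur clusters, and SDHC and SDHD anchor both in the membrane. SDHB (chr1:17018722-17054032, minus strand) was at 26.6, 26.9 and 29.1 FPKM with control siRNA, 35.6, 30.5 and 33.3 with siRNA.1, and 33.7, 32.9 and 34.1 with siRNA.2. The knockdown libraries all lay above the control libraries, and the change was 0.24 (SE 0.06, adjusted p = 0.000741) and 0.27 (SE 0.06, adjusted p = 7.52e-05). The anchors differed from it. SDHC (chr1:161314381-161363206, plus strand) was at 83.8, 81.4 and 79.0 FPKM with control siRNA, 73.7, 68.8 and 69.8 with siRNA.1, and 80.1, 85.7 and 81.1 with siRNA.2. Only the siRNA.1 libraries were low, with a change of -0.23 (SE 0.05, adjusted p = 5.08e-05), whereas the siRNA.2 libraries overlapped the control libraries (change 0.01, SE 0.05, adjusted p = 0.961). SDHD changed by -0.18 (SE 0.06, adjusted p = 0.00466) with siRNA.1, a call lost without the second control library, and by 0.05 (SE 0.06, adjusted p = 0.596) with siRNA.2. SDHA changed by -0.13 (SE 0.07, adjusted p = 0.159) and -0.01 (SE 0.07, adjusted p = 0.932), and neither change passed the test, although the first did without the first siRNA.1 library (-0.23). SDHA and SDHD have transcribed near copies among the genes counted (SDHAP1 at between 124 and 208 counts and SDHDP6 at between 120 and 206 counts). SDHAP3, a further copy of SDHA, had 65, 57 and 66 counts with control siRNA. It had 102, 110 and 148 with siRNA.1, and 120, 135 and 158 with siRNA.2. Reads of these genes and their copies may have been split, and the effect on the changes given here was not tested.

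In complex III, cytochrome c1 (CYC1) and the Rieske protein (UQCRFS1) carry electrons to cytochrome c, and UQCRC1 and UQCRC2 form the core that faces the matrix. UQCRC1 (chr3:48599002-48610976, minus strand) was at 38.0, 36.9 and 40.6 FPKM with control siRNA, 34.0, 31.6 and 32.4 with siRNA.1, and 31.3, 33.8 and 32.7 with siRNA.2. UQCRC2 (chr16:21953288-21983660, plus strand) was at 47.4, 47.5 and 48.4 FPKM with control siRNA, 39.6, 40.6 and 39.6 with siRNA.1, and 44.3, 40.9 and 42.8 with siRNA.2. For each of these core proteins the knockdown libraries all lay below the control libraries. UQCRC1 changed by -0.26 (SE 0.05, adjusted p = 1.17e-05) and -0.25 (SE 0.05, adjusted p = 2.01e-05), and UQCRC2 by -0.29 (SE 0.05, adjusted p = 1.68e-08) and -0.17 (SE 0.05, adjusted p = 0.000994).

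The nuclear-encoded electron carriers of complex III, CYC1 and UQCRFS1, were not called lower. CYC1 was at 88.3, 91.9 and 92.5 FPKM with control siRNA, 108.6, 99.7 and 99.5 with siRNA.1, and 106.1, 114.1 and 115.2 with siRNA.2, above the control libraries in every knockdown library. The change was 0.15 (SE 0.05, adjusted p = 0.00753) and 0.29 (SE 0.05, adjusted p = 9.13e-09), and the siRNA.1 call was lost without the first siRNA.1 library (log2 fold change 0.10). UQCRFS1 changed by 0.05 and 0.09, with adjusted p = 0.604 and 0.229, and the siRNA.2 value passed the test without the first siRNA.2 library. UQCRQ, a small subunit that binds near cytochrome b, changed by 0.17 (SE 0.09, adjusted p = 0.117) and by 0.28 (SE 0.08, adjusted p = 0.00366), and its siRNA.2 call was lost without the third siRNA.2 library, whereas its siRNA.1 value passed without the second siRNA.1 library. UQCRH and its intronless copy UQCRHL are nearly alike in sequence, and reads may have been split between them.

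In complex IV, the catalytic core is encoded by mitochondrial DNA, and the nuclear-encoded subunits surround it and set its activity and assembly. With siRNA.1, edgeR called 0 nuclear-encoded subunits higher (2 at an unadjusted p under 0.05, 0 with DESeq2 and with limma on log2(FPKM + 0.1), and 1, COX7A2L, with limma on log2(FPKM + 1)) and 4 lower, namely COX6B1, COX6C, COX7A2 and NDUFA4. With siRNA.2 the higher ones were COX5B, COX7B and COX8A and the lower ones COX6B2 and COX6C. Of the 14 tested, 0% were thus higher and 28.6% lower with siRNA.1, and 21.4% and 14.3% with siRNA.2. Among all genes that averaged 1 FPKM or more these shares were 22.1% and 22.8%, and 23.4% and 22.5%. The calls of COX6B1, COX5B and COX7B were each lost without the second control library, that of COX6B1 also without the second or the third siRNA.1 library and that of COX5B without the first or the second siRNA.2 library. NDUFA4 (chr7:10931943-10940153, minus strand) was at 53.7, 58.8 and 57.5 FPKM with control siRNA, 49.5, 45.4 and 52.2 with siRNA.1, and 53.6, 53.3 and 52.4 with siRNA.2. The siRNA.1 libraries lay below the control libraries, and the siRNA.2 libraries lay just below the lowest of them. The change was -0.23 (SE 0.05, adjusted p = 8.12e-06) and -0.10 (SE 0.05, adjusted p = 0.0814), and the siRNA.2 value passed the test without the first control library. COX7A2, the liver-type isoform found in most tissues, was at 32.5, 32.5 and 29.7 FPKM with control siRNA, 26.5, 25.9 and 27.0 with siRNA.1, and 33.3, 32.7 and 33.7 with siRNA.2. Its siRNA.1 libraries were the lowest of the 9 and its siRNA.2 libraries lay just above the control libraries, with a change of -0.28 (SE 0.07, adjusted p = 0.000226) and 0.06 (SE 0.07, adjusted p = 0.527).

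COX6C, a membrane subunit, was called with each siRNA, with changes of -0.15 (SE 0.05, adjusted p = 0.01) and -0.17 (SE 0.05, adjusted p = 0.0023), and both calls were lost without the third control library, the siRNA.1 call also without the second siRNA.1 library. COX8A changed by 0.09 (adjusted p = 0.222) and 0.17 (SE 0.06, adjusted p = 0.00837), and the siRNA.2 call was lost without the first control library. COX4I1 and COX5A, regulatory subunits of the enzyme, did not pass the test with either siRNA (COX4I1 -0.05 and 0.03, COX5A 0.13 and 0.12 on the log2 scale), although COX5A did in each comparison without the third control library or the first siRNA.2 library, and with siRNA.1 also without the second siRNA.1 library. COX6B2, the testis isoform of subunit 6B, was the low exception, with 18, 32 and 32 counts with control siRNA, 23, 15 and 17 with siRNA.1, and 14, 5 and 18 with siRNA.2. Its FPKM with siRNA.2, between 0.07 and 0.21, lay below the control libraries, between 0.32 and 0.55. The change with siRNA.2 was -1.49 (SE 0.45, adjusted p = 0.00444), and it was lost without the second siRNA.2 library (adjusted p = 0.0584).

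**Figure D4:**
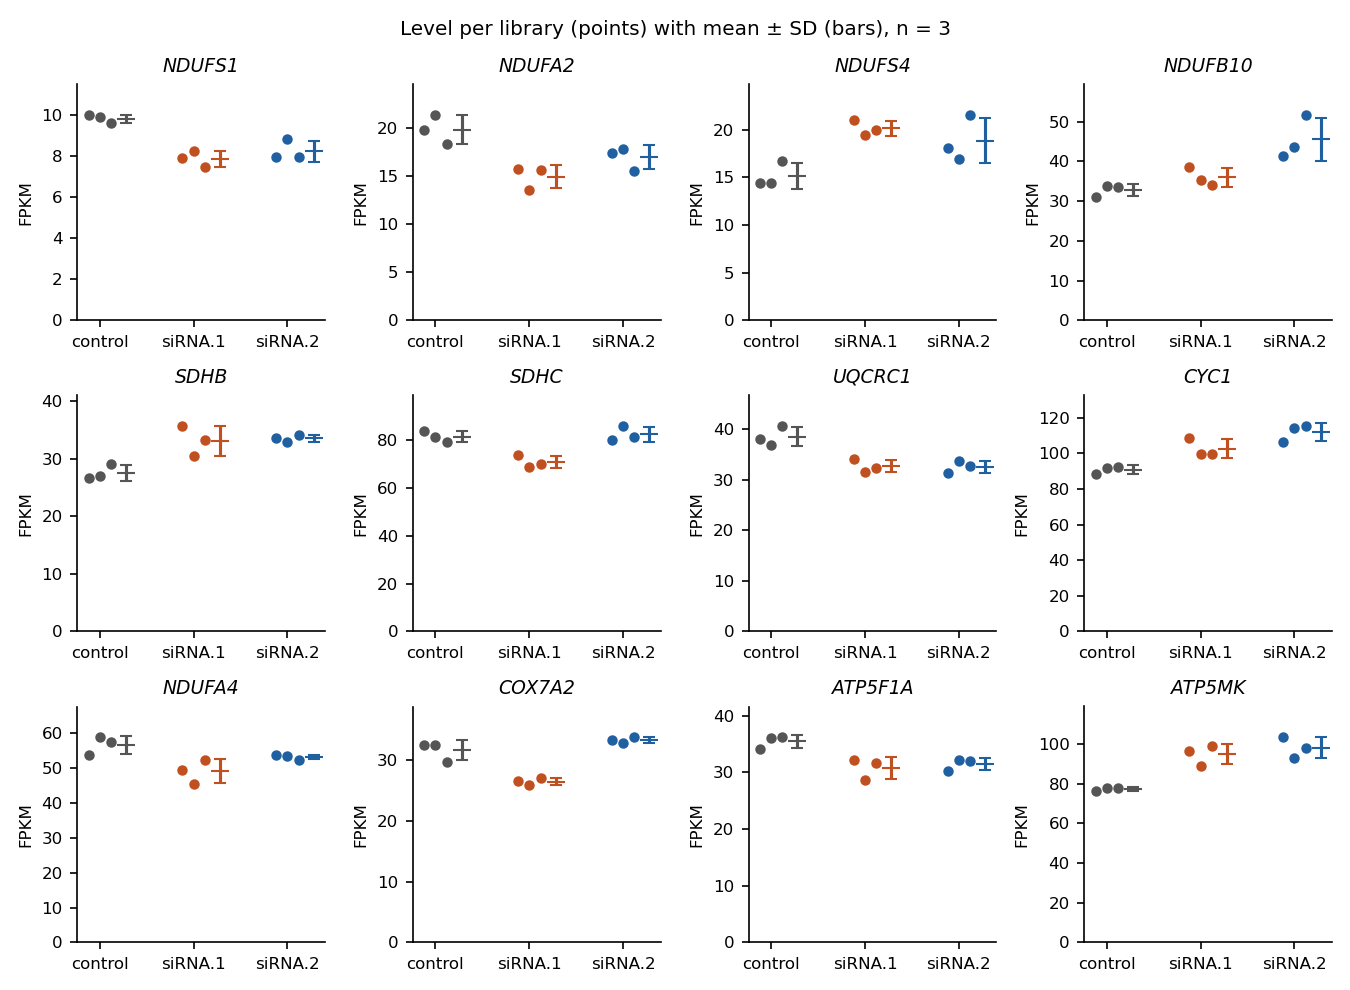
FPKM of 12 subunits in each of the 9 libraries (points), with mean ± SD of 3 libraries beside them, on axes that start at 0. NDUFS1, NDUFA2, UQCRC1 and ATP5F1A were lower in all 6 knockdown libraries and NDUFS4, SDHB, CYC1 and ATP5MK were higher, whereas SDHC and COX7A2 were lower in the 3 siRNA.1 libraries than in the other 6, and NDUFB10 was highest in the 3 siRNA.2 libraries, with the siRNA.1 libraries between them and the control libraries.

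In complex V, alpha, beta, gamma, delta and epsilon subunits (ATP5F1A to ATP5F1E) form the catalytic F1 head and its shaft, and the remaining genes encode the membrane-bound Fo part with its c-ring and the peripheral stalk. The F1 head split. ATP5F1A was at 34.2, 36.1 and 36.2 FPKM with control siRNA, 32.3, 28.6 and 31.6 with siRNA.1, and 30.3, 32.2 and 31.9 with siRNA.2. All knockdown libraries lay below the control libraries, with a change of -0.23 (SE 0.04, adjusted p = 3.82e-07) and -0.18 (SE 0.04, adjusted p = 7.11e-05). ATP5F1C, the gamma subunit of the shaft, was lower too, with changes of -0.21 and -0.13, the latter lost without the third siRNA.2 library or the second or the third control library. ATP5F1B, which pairs with the alpha subunit in the head, was at 335.6, 355.6 and 351.6 FPKM with control siRNA, 354.9, 340.2 and 340.4 with siRNA.1, and 360.02, 371.1 and 368.8 with siRNA.2. Its siRNA.1 libraries overlapped the control libraries and its siRNA.2 libraries lay slightly above them in FPKM, with changes of -0.04 (adjusted p = 0.491) and 0.07 (adjusted p = 0.165), and the latter passed the test without the first siRNA.2 library. ATP5F1D changed by 0.14 (adjusted p = 0.225) and 0.31 (SE 0.08, adjusted p = 0.00117), and the siRNA.2 call was lost without the first control library and with limma (adjusted p up to 0.0642).

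In the Fo part and the stalk, of 12 tested genes 3 were higher with siRNA.1 and 5 were higher with siRNA.2 (edgeR, adjusted p under 0.05). These shares of 25% and 41.7% compare with 15.0% and 15.8% of all genes tested, and with 22.1% and 23.4% of genes that averaged 1 FPKM or more. The count of lower genes was 0 for each siRNA in edgeR, DESeq2 and limma, and 0 at an unadjusted p under 0.05. Of all genes tested, 15.2% and 15.1% were called lower, and of genes that averaged 1 FPKM or more 22.8% and 22.5%. The 3 called higher with siRNA.1 were ATP5MF, ATP5MG and ATP5MK, small membrane subunits that belong to the region where ATP synthases meet. They were called with siRNA.2 too. ATP5ME and ATP5PF were called with siRNA.2, calls that were lost without the second siRNA.2 library. The call of ATP5ME was also lost without the third control library, and that of ATP5PF without the third siRNA.2 library or the first control library. ATP5MK (chr10:103389041-103396492, minus strand) was at 76.2, 77.8 and 77.7 FPKM with control siRNA, 96.8, 89.1 and 98.9 with siRNA.1, and 103.4, 92.8 and 98.1 with siRNA.2. ATP5MF (chr7:99448475-99466186, minus strand) was at 72.4, 81.0 and 78.5 FPKM with control siRNA, 94.8, 85.9 and 94.6 with siRNA.1, and 91.7, 96.0 and 100.6 with siRNA.2. For both genes every knockdown library lay above every control library. ATP5MK changed by 0.27 (SE 0.06, adjusted p = 4.67e-05) and 0.33 (SE 0.06, adjusted p = 1.85e-07), and ATP5MF by 0.22 (SE 0.05, adjusted p = 2.77e-05) and 0.30 (SE 0.05, adjusted p = 2e-09). The 3 genes of the c-ring (ATP5MC1, ATP5MC2 and ATP5MC3) did not pass the test against control siRNA, with log2 fold changes between -0.14 and 0.11.

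To show the sequence around the start sites of subunits called with each siRNA, the promoters of the 2 lowest and the 2 highest of them by mean change are printed 5′ to 3′ on the strand of the gene, as windows of 300 bases around the RefSeq start (GRCh38.p14). Capitals mark exact matches, on either strand, to GCGCANGCG (the NRF1 motif), CCGGAAG (ETS factors such as GABPA), AAGATGGCG (YY1) and GGGCGGGG (SP1). NDUFA2 (chr5:140647581-140647880, minus strand) has 1 SP1 match, NDUFS1 (chr2:206159395-206159694, minus strand) 1 ETS match, NDUFS4 (chr5:53560389-53560688, plus strand) 1 YY1 match, and ATP5MK (chr10:103396426-103396725, minus strand) 3 ETS matches, of which 2 overlap on opposite strands.
NDUFA2: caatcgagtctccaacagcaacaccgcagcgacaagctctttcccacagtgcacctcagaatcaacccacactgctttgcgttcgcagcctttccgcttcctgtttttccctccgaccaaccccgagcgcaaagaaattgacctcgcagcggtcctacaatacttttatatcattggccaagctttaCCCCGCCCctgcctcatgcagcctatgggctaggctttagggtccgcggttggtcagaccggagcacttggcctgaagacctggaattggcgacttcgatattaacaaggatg
NDUFS1: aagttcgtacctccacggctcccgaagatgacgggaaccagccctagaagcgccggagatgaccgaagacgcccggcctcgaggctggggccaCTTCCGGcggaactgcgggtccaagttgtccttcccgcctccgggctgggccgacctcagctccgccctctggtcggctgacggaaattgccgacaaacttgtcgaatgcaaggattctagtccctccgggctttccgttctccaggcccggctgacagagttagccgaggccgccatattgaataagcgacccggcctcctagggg
NDUFS4: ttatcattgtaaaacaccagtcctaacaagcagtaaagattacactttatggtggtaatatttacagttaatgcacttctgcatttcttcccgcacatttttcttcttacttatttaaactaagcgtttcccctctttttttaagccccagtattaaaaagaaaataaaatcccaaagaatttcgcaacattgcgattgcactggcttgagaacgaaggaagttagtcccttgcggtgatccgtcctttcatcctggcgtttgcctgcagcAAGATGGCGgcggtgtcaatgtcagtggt
ATP5MK: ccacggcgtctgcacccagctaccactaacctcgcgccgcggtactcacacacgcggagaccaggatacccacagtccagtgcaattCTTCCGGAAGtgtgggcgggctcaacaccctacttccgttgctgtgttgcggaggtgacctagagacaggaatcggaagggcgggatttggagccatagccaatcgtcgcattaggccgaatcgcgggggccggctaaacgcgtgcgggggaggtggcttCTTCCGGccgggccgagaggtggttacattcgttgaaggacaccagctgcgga

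RefSeq promoters of the same length were at hand for 68 members and numbered 35116 in all. These 35116 were not filtered by gene type or level, so they are not a background matched to the members. Of the members, 22 (32.4%) held the NRF1 motif, 20 (29.4%) the ETS motif, 8 (11.8%) the YY1 motif and 15 (22.1%) the SP1 motif. Of all promoters, 7.52%, 10.3%, 1.75% and 22.8% held them. At least 1 of the 4 was present in 49 members (72.1%) and in 34.0% of all promoters. NRF1 and GABPA are known regulators of respiratory genes. By complex, the NRF1 motif was found in 8 of 31 promoters of complex I, 2 of 3 of complex II, 4 of 7 of complex III, 2 of 14 of complex IV and 6 of 13 of complex V, and the ETS motif in 5, 2, 3, 5 and 5 of the same promoters. These are matches of letters, and a match is not a bound site.

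The members called between the siRNAs all differed in 1 direction. Between siRNA.2 and siRNA.1, 12 of 81 members were called higher with siRNA.2 and 0 lower (edgeR, adjusted p under 0.05), with 0 lower at an unadjusted p under 0.05 as well. That is 14.8% and 0%, where 6.10% of all genes tested were called higher and 6.07% lower, and 9.79% and 9.55% of genes that averaged 1 FPKM or more. Against a minimum fold of 1.2, 0 members passed (2 higher and 0 lower at an unadjusted p under 0.05), where 0.565% of all genes were called higher and 0.902% lower. The 12 were spread over the complexes, with 4 in complex I (NDUFA5, NDUFB10, NDUFS5 and NDUFV1) and 2 in each of complex II (SDHC and SDHD), complex III (CYC1 and UQCRH), complex IV (COX7A2 and NDUFA4) and complex V (ATP5F1B and ATP5MC1). The largest difference was that of NDUFB10, at 0.36 (SE 0.08, adjusted p = 9.54e-05), which was lost without the third siRNA.2 library (0.25, adjusted p = 0.0564), followed by COX7A2 at 0.35 (SE 0.07, adjusted p = 8.48e-06) and NDUFA5 at 0.35 (SE 0.10, adjusted p = 0.00715). At a larger scale, 66 of the 81 members had a positive difference, as did 10856 of all 21397 genes tested. The median was 0.08 against 0.00 for all genes, and it was 0.07 or more for each complex. Members measured in the same libraries are not replicates. The median of the members in single libraries overlapped between the siRNAs. Relative to the control mean it lay between -0.04 and 0.04 with siRNA.1 and between 0.02 and 0.10 with siRNA.2. The 12 subunits encoded by mitochondrial DNA that were called in this comparison, of 13, were also higher with siRNA.2. The count of 12 fell to 4 with limma on FPKM, to 8 without the second siRNA.1 library, and to 7 without the third siRNA.1 library or without the second or the third siRNA.2 library. The calls of COX7A2, NDUFA5, NDUFS5, SDHC and SDHD held with each library left out in turn. The count of members lower with siRNA.2 was 0 under every alternative run.

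Genes that work with these subunits moved by larger amounts in some cases. Of 58 assembly factors, 17 were higher and 5 lower with siRNA.1 and 23 higher and 2 lower with siRNA.2, with medians of 0.10 and 0.14. The shares called higher, 29.3% and 39.7%, compare with 15.0% and 15.8% of all genes tested and with 22.1% and 23.4% of genes that averaged 1 FPKM or more. Those called lower, 8.62% and 3.45%, compare with 15.2% and 15.1% of all genes and with 22.8% and 22.5% of the abundant ones. UQCC3, an assembly factor of complex III, went from 2.00 FPKM ± 0.556 (SD, n = 3) to 4.82 ± 0.533 and 4.02 ± 0.095, a log2 fold change of 1.26 and 1.01 (adjusted p = 9.32e-14 and 4.17e-09), and PET117, which serves complex IV, changed by 0.89 and 0.72 (adjusted p = 0.00538 and 0.0295), calls that were lost without the first control library, the siRNA.2 call also without the second siRNA.2 library. COX18, which inserts a mitochondrially encoded subunit into the membrane, was lower, with changes of -0.68 and -0.42 (adjusted p = 1.03e-06 and 0.00301), and PET100 changed by -0.53 and -0.62 without passing the test (adjusted p = 0.121 and 0.0531), although the siRNA.2 value passed without the second siRNA.2 library or without the first or the second siRNA.1 library. Without the first siRNA.1 library or the first control library, 10 and 11 assembly factors were higher with siRNA.1 in place of 17.

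Of 18 electron carriers and partners of the complexes, 7 were higher and 2 lower with siRNA.1 and 6 higher and 1 lower with siRNA.2. The shares called higher were 38.9% and 33.3%, against 15.0% and 15.8% of all genes tested. Among genes that averaged 1 FPKM or more they were 22.1% and 23.4%. The shares called lower were 11.1% and 5.56%, against 15.2% and 15.1% of all genes tested and 22.8% and 22.5% of the abundant ones. CYCS, the cytochrome c that links complexes III and IV, went from 103 FPKM ± 3.11 in control libraries to 145 ± 4.36 upon siRNA.1 and 159 ± 0.821 upon siRNA.2, changes of 0.47 and 0.61 (adjusted p = 7.31e-36 and 6.03e-62). ETFB, an electron carrier of fatty acid oxidation, changed by 0.55 and 0.70 (adjusted p = 3.74e-09 and 9.92e-15). COQ4 and PDSS2, of ubiquinone synthesis, did not pass the test (COQ4 -0.11 and -0.12, PDSS2 -0.04 and -0.21). Other genes of ubiquinone synthesis did. COQ5 changed by 0.64 and 0.42 (edgeR adjusted p = 1.35e-10 and 6.06e-05) and COQ3 by 0.51 and 0.51 (adjusted p = 0.0161 and 0.013). COQ9 passed with siRNA.1 alone (0.31, adjusted p = 0.0031). COQ2, COQ6, COQ7, COQ8A and PDSS1 passed with neither siRNA. ETFDH, which passes electrons from ETF to ubiquinone, was named after its values were seen, since it averaged under 1 FPKM. It went from 0.71 FPKM ± 0.021 (SD, n = 3) to 0.37 ± 0.047 and 0.39 ± 0.04, changes of -0.95 and -0.86 (adjusted p = 2.73e-11 and 5.02e-10).

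Of 14 tested regulators of respiratory gene transcription, 3 were higher and 3 lower with siRNA.1, and 4 were higher and 2 lower with siRNA.2. These shares of 21.4% and 21.4%, and of 28.6% and 14.3%, are near those of all genes that averaged 1 FPKM or more (22.1% and 22.8%, and 23.4% and 22.5%). GABPB2 changed by 0.58 and 0.53, PPARGC1B by 0.36 and 0.57, and SP1 by -0.42 and -0.41, and all of them passed the test in each comparison, the siRNA.1 call of PPARGC1B being lost without the second siRNA.1 library. Without the third control library, 2 regulators were higher with siRNA.2 in place of 4. TFB1M, which modifies mitochondrial ribosomal RNA, changed by -0.62 (adjusted p = 0.000965) with siRNA.1 and by -0.07 (adjusted p = 0.792) with siRNA.2. Of 13 enzymes and subunits of the tricarboxylic acid cycle, 2 were higher and 3 lower with siRNA.1 and 5 higher and 3 lower with siRNA.2 (15.4% and 23.1%, and 38.5% and 23.1%), with medians of -0.04 and 0.03. DLD and FH were lower (DLD -0.38 and -0.24, FH -0.32 and -0.21) and IDH3A and IDH3B were higher (IDH3A 0.43 and 0.32, IDH3B 0.19 and 0.31) with each siRNA, and the siRNA.1 call of IDH3B was lost without the first siRNA.1 library. The 5 higher with siRNA.2 became 3 without the second siRNA.2 library or the first control library, and 2 without the third siRNA.2 library.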

How the data were processed

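RNA was measured in 9 libraries of TE13 cells, 3 per condition, grouped by their labels. According to the study's methods, reads were aligned to the human genome (GRCh38 per the labels) with STAR and counted per gene with featureCounts. Versions, annotation release and strandedness are not given in the sources used here. Per gene, a raw read count and an FPKM value were deposited by the authors for each library. All FPKM values equal the count divided by exonic length and library total within 0.006. Columns of per-library values left unused numbered 0.

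Counts were tested with edgeR 4.0.16 in R 4.3.3 (quasi-likelihood test, TMM scaling, 1 fit of the 3 conditions without covariates) over the 21397 genes averaging 0.1 FPKM or more, and p-values were adjusted over all of them (Benjamini-Hochberg, threshold 0.05). SE was taken as the size of the log2 change over the root of its F. Each PARylator siRNA was compared with control siRNA, and the siRNAs with each other. The script was tested on simulated data. Alternatives, in part with limma 3.58.1 and DESeq2 1.42.0, covered the tool, pseudocounts of 0.1 and 1, scaling, filters, the libraries in the fit, a replicate block, a minimum fold of 1.2, each library left out and the placing of NDUFA4. Tables were summarised in Python 3.11.15.

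The members and lists were chosen with earlier results of these data known. Genes named are, per complex, the 3 with the largest absolute mean change of both siRNAs (mean of at least 1 FPKM), 10 subunits of fixed role, the 5 with the largest called difference between the siRNAs, the 3 most abundant in control libraries, 6 tissue-restricted isoforms and members called in opposite directions by the siRNAs, and, per other list, the 2 highest and 2 lowest by mean change among genes averaging 1 FPKM or more. Other members, ETFDH and the ubiquinone synthesis genes other than COQ4 and PDSS2 were named after their values were seen. In addition, 1 member is counted but not reported by name here. Without known strand, reads of a gene and of genes overlapping it cannot be told apart. By GENCODE release 44, 28 members share exonic bases with a gene on the same strand and 31 with a gene on the opposite strand. The 31 include NDUFA2, NDUFS1 and ATP5ME (12.1%, 11.6% and 61.3% of exonic bases). Of the 87 members, 83 have the start and end that this release gives.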

Additional observations from a re-analysis of the deposited data

Results flagged for a closer look

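The level differed between the PARylator siRNAs in 12 members, each tested directly between siRNA.2 and siRNA.1 with edgeR (adjusted p under 0.05). Each was higher with siRNA.2, and the source of these differences was not tested. In complex I, the log2 difference was 0.36 for NDUFB10, 0.35 for NDUFA5, 0.22 for NDUFS5 and 0.15 for NDUFV1. In complex II it was 0.23 for SDHC and 0.23 for SDHD, and in complex III 0.14 for CYC1 and 0.17 for UQCRH. In complex IV it was 0.35 for COX7A2 and 0.13 for NDUFA4, and in complex V 0.24 for ATP5MC1 and 0.10 for ATP5F1B. The call of NDUFA4 (adjusted p = 0.04998) was lost under 17 of 19 alternatives and that of ATP5F1B under 10 of 19, whereas that of NDUFB10 was lost under 1 of 19, without the third siRNA.2 library, and that of NDUFA5 under 2 of 19, both with limma. The calls of COX7A2, NDUFA5, NDUFS5, SDHC and SDHD held with every single library left out, and those of the other 7 members were lost without at least 1 of the siRNA.1 or siRNA.2 libraries. Conditions of 3 libraries are too small for a test of single outlying libraries.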

How the results depend on the processing

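Counts of members higher and lower stayed within 1.5 times of the reported ones except as follows. With a minimum fold of 1.2, 0 members were higher and 0 lower with siRNA.1, 1 was higher and 1 lower with siRNA.2, and 0 were higher between the siRNAs. With limma on log2(FPKM + 0.1) or log2(FPKM + 1), 4 were higher between the siRNAs. Leaving out each library in turn gave between 9 and 15 higher and between 14 and 20 lower with siRNA.1, between 16 and 28 higher and between 7 and 9 lower with siRNA.2, and between 7 and 15 higher between the siRNAs. The median of complex I between the siRNAs was 0.043 with limma on log2(FPKM + 1), and between 0.035 and 0.12 over the libraries left out; the other medians of complexes moved by less than the SD between libraries under every alternative run. No named value that was called changed sign. Of 29 named values, 22 kept their side of the threshold throughout with siRNA.1, 18 with siRNA.2 and 20 between the siRNAs.

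Replicate numbers did not pair the libraries, since deviations of libraries with the same number correlated between -0.053 and 0.033. With a replicate block, 12 members were higher and 17 lower with siRNA.1, 25 were higher and 9 lower with siRNA.2, and 9 were higher and 0 lower between the siRNAs. Depth limits statements on COX7A1, COX6B2, COX8C and LINC00885, which have few counts.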
